A study of Mus musculus with 4 samples.

Results

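Glucose uptake and glycolysis were followed through 10 genes, 1 for each of 10 activities between the import of glucose and the formation of lactate: Slc2a1, Hk2, Gpi1, Pfkl, Aldoa, Gapdh, Pgk1, Eno1, Pkm and Ldha. These genes, the members of the set, were taken by name and function from the 41214 genes of the count table. The rule uses no measured value, but the set was chosen with earlier results of these data known. RNA-seq was performed on unstimulated B220+ splenocytes of C57BL/6 mice, with 2 biological replicates per genotype. MIZ-1DPOZ mice carried Miz-1 alleles whose POZ domain is flanked by loxP sites together with Mb1-Cre, a Cre recombinase expressed from the Cd79a promoter in B lineage cells, so that MIZ-1, a zinc finger transcription factor encoded by Zbtb17, lost its POZ domain in B cells. MIZ-1WT mice had the full MIZ-1 protein, and whether they carried Mb1-Cre is not given in the sources used here. Both groups were young adults. Cells were obtained by lysis of red cells and positive selection on B220 with magnetic beads, and cells of other types, in which this Cre is not driven, could remain in the samples. How many mice went into a library is not given in the sources used here.

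Glycolysis splits glucose into pyruvate and yields ATP and NADH without oxygen. Glucose enters through facilitative transporters, is trapped by hexokinase, committed by phosphofructokinase, cleaved by aldolase, oxidized by glyceraldehyde phosphate dehydrogenase and turned into pyruvate by pyruvate kinase, after which lactate dehydrogenase regenerates NAD+. Resting B cells use little glucose, and activated B cells raise transporters and enzymes of the pathway, for which the transcription factors MYC and HIF-1 are well known activators.

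Each library held between 43026814 and 46387209 reads counted on genes, so that the least counted of the 10 genes still had 593 reads in a library. Markers shared by all B cells were abundant. Summed over 10 genes they had 13600 and 14000 CPM (counts scaled to a common library size, with TMM factors) in MIZ-1WT. In MIZ-1DPOZ they had 11500 and 11800 CPM. Reads of Zbtb17, counted over all its exons and not over the deleted part alone, numbered 2087 and 1946 in MIZ-1WT and 1774 and 1669 in MIZ-1DPOZ, which does not check the deletion itself. Reads on no annotated gene made up 27.2% and 25.5% in MIZ-1WT and 21.6% and 21.1% in MIZ-1DPOZ, and their part in the results was not tested. The libraries also differed in sex-linked reads. Xist, the RNA of the inactive X chromosome, had 49 and 60 reads in MIZ-1WT and 38145 and 40838 in MIZ-1DPOZ, whereas the Y-linked Ddx3y had 15840 and 14896 against 680 and 622. Sex and genotype therefore cannot be told apart in any comparison that follows. Summed levels of 16 macrophage markers were 980 and 1310 CPM in MIZ-1WT and 5840 and 3650 CPM in MIZ-1DPOZ, and those of 10 proliferation genes were 480 and 472 CPM against 1310 and 1140 CPM. In such bulk samples, fewer cells of a type and less RNA per cell cannot be told apart.

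The stretches before the start sites of these genes are shown first for Hk2 and Pgk1, the genes with the largest changes, and for Ldha, the single member with the full E-box of MYC. Each run is 250 bases long, ends at the base before a RefSeq start site in GRCm38.p6, and is written 5′ to 3′ on the strand of the gene. Capitals mark ACGTG and GCGTG, the core of HIF response elements, on either strand (as CACGT and CACGC on the reverse), and CACGTG, the E-box, which contains ACGTG on both strands.
Hk2 (chr6:82774455-82774704, minus strand): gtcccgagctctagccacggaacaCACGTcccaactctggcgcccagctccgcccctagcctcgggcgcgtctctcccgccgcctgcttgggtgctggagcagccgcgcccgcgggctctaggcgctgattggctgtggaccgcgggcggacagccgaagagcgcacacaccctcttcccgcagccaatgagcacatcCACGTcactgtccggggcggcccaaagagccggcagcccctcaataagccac
Pgk1 (chrX:106186850-106187099, plus strand): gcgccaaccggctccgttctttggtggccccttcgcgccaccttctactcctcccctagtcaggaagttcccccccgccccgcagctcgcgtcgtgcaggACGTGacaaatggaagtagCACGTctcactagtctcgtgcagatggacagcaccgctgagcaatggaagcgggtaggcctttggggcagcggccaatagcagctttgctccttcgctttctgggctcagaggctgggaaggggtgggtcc
Ldha, first start site (chr7:46845554-46845803, plus strand): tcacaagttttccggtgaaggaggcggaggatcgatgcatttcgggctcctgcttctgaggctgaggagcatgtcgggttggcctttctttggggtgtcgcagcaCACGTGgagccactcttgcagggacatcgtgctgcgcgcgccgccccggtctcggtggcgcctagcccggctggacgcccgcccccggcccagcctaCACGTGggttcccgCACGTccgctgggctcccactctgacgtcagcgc
Both matches before Hk2 read CACGT. Those before Pgk1 stand in opposite orientations, ACGTG first and CACGT after it. Ldha held CACGTG at 2 places and a further CACGT. All 10 members were found in the RefSeq table, with 16 start sites in all. ACGTG or GCGTG occurred before 13 of the 16, and before at least 1 start site of 9 members, all but Gpi1. The last 2 windows of Aldoa overlap and hold the same match, and the last 2 of Eno1 overlap and hold the same matches. These matches are therefore counted more than once. The share over all windows was computed per window and not per gene, and members with several start sites had several chances. Of the 32851 windows of the same length in the table, 38.6% held ACGTG or GCGTG on either strand, and 6.02% held CACGTG, which occurred before 1 of the 16 member start sites. These matches describe the letters of the windows, and binding was not measured here.

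Gene expression was compared between the genotypes across all 14554 genes that reached 10 counts in 2 or more libraries, a filter that all 10 members passed. Expression of 6 members (Hk2, Gpi1, Gapdh, Pgk1, Pkm and Ldha) was higher in MIZ-1DPOZ B220+ splenocytes at an adjusted p under 0.05. The test was the quasi-likelihood test of edgeR, adjusted after Benjamini and Hochberg. No member was lower at that threshold in edgeR, and the Wald test of DESeq2 called 0 lower as well. At an unadjusted p under 0.05 in edgeR, 1 member was lower, Slc2a1. Of all genes tested, 21.1% were higher and 18.9% lower. The median log2 fold change, always given here as MIZ-1DPOZ over MIZ-1WT, was 0.25 over the 10 members and -0.01 over all genes tested. Both MIZ-1DPOZ libraries lay above both MIZ-1WT libraries for 7 members, against 37.2% of all genes tested, and below them for 3, against 37.6%. Of these 3, Eno1 was level between the second libraries of the genotypes to 3 digits (84.5 CPM in each). Summed over the 10 genes, levels were 1360 and 1340 CPM in MIZ-1WT and 1550 and 1540 CPM in MIZ-1DPOZ. A log2 fold change of at least 0.6 with an unadjusted p under 0.05 was reached upward by 15.0% of all genes and by 1 member, Hk2, and the same size downward by 5.30% of all genes and by 0 members. The other 5 higher members rose between 1.18-fold and 1.41-fold.

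**Figure D1:**
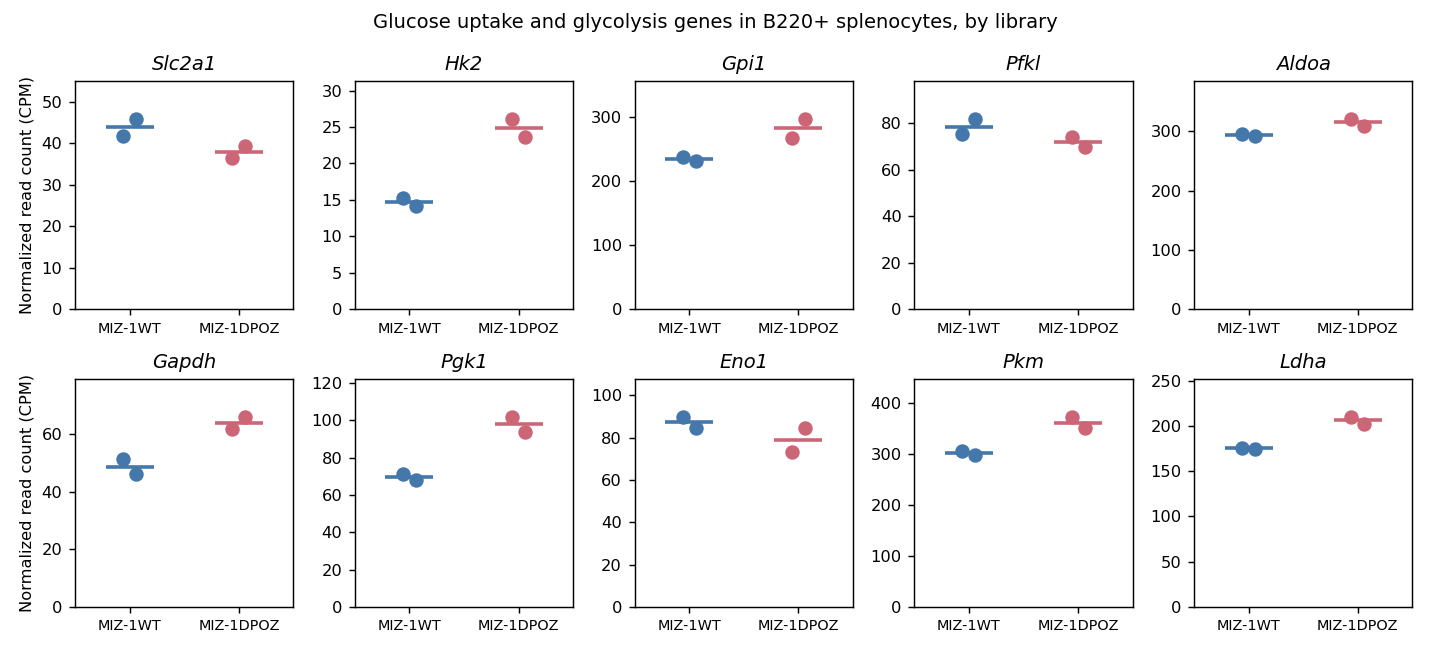
Normalized read counts (CPM, vertical axes from 0) of the 10 genes in each library of MIZ-1WT and MIZ-1DPOZ B220+ splenocytes. Points are libraries and lines are means of 2. Hk2 and Pgk1 are most clearly set apart, while the levels of Slc2a1, Pfkl and Eno1 were lower in both MIZ-1DPOZ libraries without passing the test.

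Slc2a1 (ENSMUSG00000028645, GRCm38 chromosome 4, 119108711 to 119137983, plus strand) encodes GLUT1, the main basal glucose transporter of lymphocytes. Its normalized counts were 41.8 and 45.8 CPM in MIZ-1WT and 36.5 and 39.3 CPM in MIZ-1DPOZ. The groups did not overlap, but the log2 fold change of -0.21 (95% confidence interval -0.39 to -0.03, standard error 0.07) had an adjusted p of 0.0698. Slc2a3, the gene of the high-affinity transporter GLUT3, was measured at 83.1 and 73.7 CPM in MIZ-1WT and 79.2 and 84.3 CPM in MIZ-1DPOZ, with overlapping groups (log2 fold change 0.06, adjusted p = 0.548). Lesser transporters of the family rose, Slc2a8 from 5.22 ± 0.144 to 7.32 ± 0.462 CPM (mean ± SD, n = 2; adjusted p = 0.028, edgeR) and Slc2a9, whose protein also carries urate, from 7.69 ± 0.631 to 10.3 ± 0.371 CPM (adjusted p = 0.0321, edgeR). Slc2a6 (log2 fold change -0.17, adjusted p = 0.227) and Slc2a13 (1.88, adjusted p = 0.0606), a transporter of myo-inositol measured below 1 CPM, did not pass the test.

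Hk2 (ENSMUSG00000000628, chromosome 6, 82725025 to 82774454, minus strand) encodes the inducible hexokinase that binds mitochondria. It had the largest change of the 10 genes, with 15.2 and 14.1 CPM in MIZ-1WT against 26.1 and 23.6 CPM in MIZ-1DPOZ. Every MIZ-1DPOZ value was above every MIZ-1WT value by more than the distance within either group. The rise was 1.70-fold (log2 fold change 0.76, standard error 0.09, adjusted p = 0.0027). Hk1, the constitutive form, was at 43.8 and 42.1 CPM in MIZ-1WT and at 41.5 and 45.6 CPM in MIZ-1DPOZ, and no difference passed the test (log2 fold change 0.02, adjusted p = 0.838). Hk3, the hexokinase of myeloid cells, had 3.39 and 6.59 CPM in MIZ-1WT and 22.8 and 14.3 CPM in MIZ-1DPOZ, which gave a log2 fold change of 1.90 (adjusted p = 0.0105, standard error 0.35). Hk3 was higher in the second MIZ-1WT library and in the first MIZ-1DPOZ library, the same order as the summed macrophage markers (980 and 1310 CPM, then 5840 and 3650 CPM). Of the 6 higher members, 0 had the order of the macrophage markers in both genotypes. The order of the summed proliferation genes was shared by 4 of them (Hk2, Pgk1, Pkm and Ldha). In MIZ-1WT, however, the proliferation sums that set this order were nearly level (480 and 472 CPM). Of the 22 higher pathway genes described below, 7 had the macrophage order (Hk3, Tpi1, Pdk3, G6pdx, Tkt, Pygl and Pgm1). The share of all genes with either order was not computed, so these counts are given as descriptions. The part of macrophage RNA in these values was not tested.

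Gpi1 (ENSMUSG00000036427, chromosome 7, 34201330 to 34230336, minus strand), the gene of glucose phosphate isomerase, rose 1.2-fold, from 238 and 231 CPM in MIZ-1WT to 268 and 297 CPM in MIZ-1DPOZ (log2 fold change 0.27, standard error 0.06, adjusted p = 0.0191). The groups did not overlap, although the MIZ-1DPOZ libraries lay further apart than those of MIZ-1WT. Over 11.5% of its exon bases it overlaps the lincRNA Gm26762 on the opposite strand. The strand setting of the counting is not given in the sources used here. How reads there were assigned is therefore not known, and some may have been left out of Gpi1 as ambiguous. Pseudogenes that hold stretches of Gpi1 had 1921 and 2035 reads in MIZ-1WT and 826 and 935 in MIZ-1DPOZ. Most of these fell on Gm11346, which shares 10 of 2835 stretches of 50 bases with Gpi1 and was lower in MIZ-1DPOZ (1721 and 1854 reads against 593 and 695, log2 fold change -1.56, adjusted p = 0.00129). Gm1840, which shares 527 of them, had 200 and 181 reads in MIZ-1WT and 233 and 240 in MIZ-1DPOZ (log2 fold change 0.22, adjusted p = 0.263).

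Phosphofructokinase, the committed step, was measured through 3 genes whose values went apart. Pfkl (ENSMUSG00000020277, chromosome 10, 77986947 to 78010083, minus strand), the liver-type subunit, had 75.1 and 81.7 CPM in MIZ-1WT and 74.1 and 69.5 CPM in MIZ-1DPOZ. Its log2 fold change was -0.13 (95% confidence interval -0.29 to 0.03, adjusted p = 0.172). Pfkp, the platelet-type subunit, rose from 99.4 and 98.4 CPM to 131 and 123 CPM (log2 fold change 0.37, standard error 0.05, adjusted p = 0.0044). Pfkm, the muscle-type subunit, was a minor form at 2.54 and 1.76 CPM in MIZ-1WT and 4.01 and 4.19 CPM in MIZ-1DPOZ, and rose as well (log2 fold change 0.93, adjusted p = 0.0212). At this step the higher genes were therefore the other two subunits and not the member.

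Aldoa (ENSMUSG00000030695, chromosome 7, 126795234 to 126800751, minus strand), which encodes the main aldolase of most tissues, had 296 and 293 CPM in MIZ-1WT and 321 and 310 CPM in MIZ-1DPOZ. The groups did not overlap, but the log2 fold change of 0.10 (95% confidence interval -0.01 to 0.21) did not pass the test (adjusted p = 0.129). Aldoc, an isoenzyme of the nervous system, fell by 0.62 on the log2 scale, from 7.40 ± 1.42 to 4.81 ± 0.291 CPM (n = 2, adjusted p = 0.035, edgeR). Tpi1, triose phosphate isomerase, which joins the products of aldolase, rose 1.60-fold from 63.9 and 68.2 CPM to 112 and 99.4 CPM (log2 fold change 0.68, standard error 0.08, adjusted p = 0.0024).

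Gapdh (ENSMUSG00000057666, chromosome 6, 125161715 to 125166467, minus strand), the gene of the dehydrogenase that is a common reference gene, rose 1.31-fold. Its normalized counts were 51.2 and 46.1 CPM in MIZ-1WT and 61.8 and 66.0 CPM in MIZ-1DPOZ (log2 fold change 0.39, standard error 0.07, adjusted p = 0.0101). Pgk1 (ENSMUSG00000062070, chromosome X, 106187100 to 106203699, plus strand), which makes the first ATP of the pathway, rose 1.41-fold from 71.1 and 67.9 CPM to 102 and 93.7 CPM (log2 fold change 0.49, standard error 0.06, adjusted p = 0.00321). In both genes all MIZ-1DPOZ values were above all MIZ-1WT values. Pgk1 is the single X-linked member, and the libraries differed in sex-linked reads. Of 479 X-linked genes tested, 14.6% were higher in MIZ-1DPOZ, against 21.4% of autosomal genes. Pgk2, a testis form on chromosome 17 measured below 1 CPM, did not pass the test (log2 fold change -1.75, adjusted p = 0.0674).

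Phosphoglycerate mutase and its relative were both higher. Pgam1 rose from 12.9 and 14.2 CPM to 19.3 and 19.5 CPM (log2 fold change 0.52, standard error 0.08, adjusted p = 0.00694), and Bpgm, which makes bisphosphoglycerate, from 18.8 and 18.7 CPM to 22.5 and 22.3 CPM (log2 fold change 0.25, adjusted p = 0.0316). Eno1 (ENSMUSG00000063524, chromosome 4, 150236721 to 150248879, plus strand), the ubiquitous enolase, went the other way, with 89.9 and 84.5 CPM in MIZ-1WT and 73.2 and 84.5 CPM in MIZ-1DPOZ. The second libraries of the genotypes were level with each other to 3 digits, and the log2 fold change of -0.15 (95% confidence interval -0.34 to 0.05) did not pass the test (adjusted p = 0.198). Eno3, the muscle form, had a log2 fold change of -0.11 (adjusted p = 0.30), and Eno2, the neuronal form, one of 0.54 (adjusted p = 0.466) at levels below 1 CPM.

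Pkm (ENSMUSG00000032294, chromosome 9, 59656368 to 59679375, plus strand), the pyruvate kinase of lymphocytes, was the most counted of the 10 genes, and rose 1.2-fold from 305 and 298 CPM to 373 and 350 CPM (log2 fold change 0.26, standard error 0.05, adjusted p = 0.0125). Counts per gene do not separate its spliced forms PKM1 and PKM2, and Gm49759, annotated on the same strand, covers 15.3% of its exon bases. Ldha (ENSMUSG00000063229, chromosome 7, 46841475 to 46855627, plus strand), the subunit that favours lactate formation, rose 1.18-fold from 176 and 174 CPM to 210 and 202 CPM (log2 fold change 0.24, standard error 0.05, adjusted p = 0.0114). Ldhb, the subunit that favours pyruvate, stayed below 1 CPM in all libraries (log2 fold change 0.36, adjusted p = 0.50). In both members the rise exceeded the distance between replicates of either genotype.

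With 2 libraries per genotype, the calls of the smaller changes rested on each MIZ-1WT library. Hk2 and Pgk1 were called in every fit that left out 1 library. Without MIZ-1WT replicate 1 there were 3 higher members, since Gpi1 (adjusted p = 0.0941), Pkm (0.0766) and Ldha (0.0869) were lost. Without MIZ-1WT replicate 2 there were 2, since Gapdh (0.0634) was lost as well, with Gpi1 at 0.117, Pkm at 0.0914 and Ldha at 0.0897. Such a fit has fewer residual degrees of freedom and assumes that the lone library varies like the other genotype, and in it the share of all genes called also fell, from 40.0% to 15.1% and 19.4%. Without MIZ-1DPOZ replicate 2, Eno1 was called lower (log2 fold change -0.24, adjusted p = 0.023) beside the 6 higher members.

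**Figure D2:**
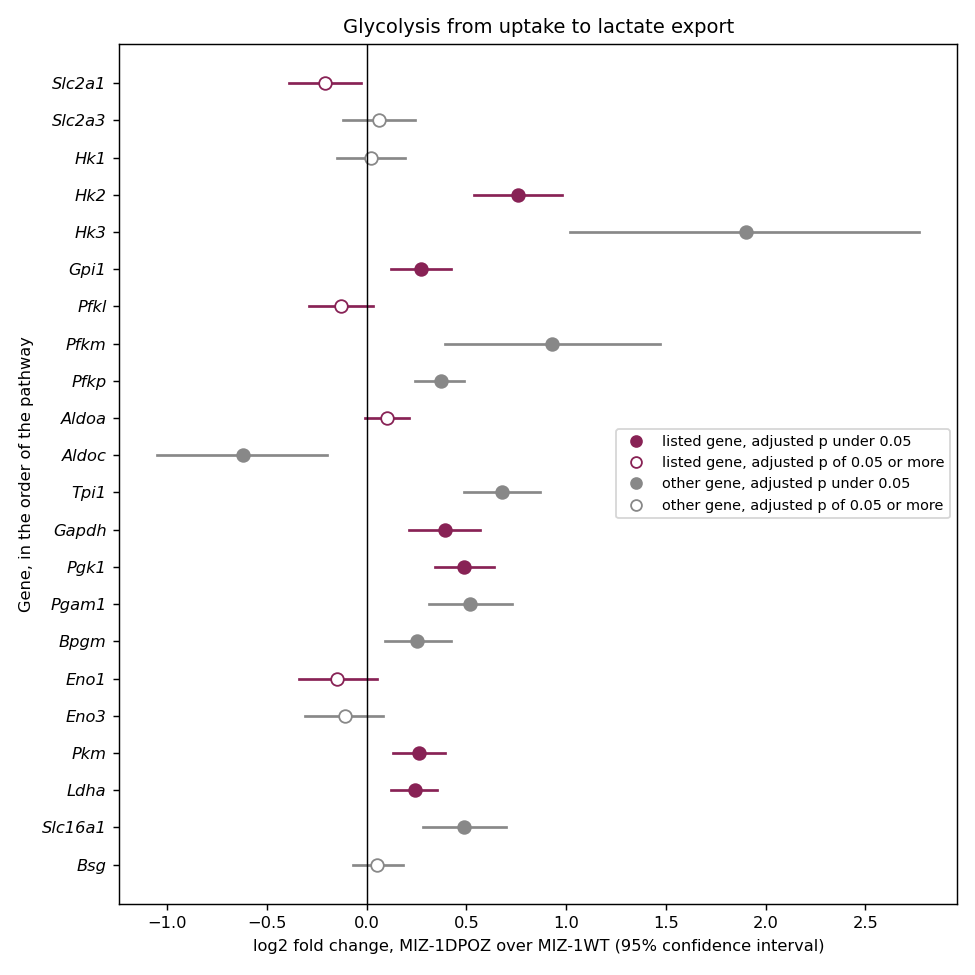
Log2 fold changes of MIZ-1DPOZ over MIZ-1WT (horizontal axis) with 95% confidence intervals for the 10 genes and related genes tested, ordered from glucose uptake to lactate export. Filled points passed an adjusted p of 0.05 in edgeR. The isomerase, dehydrogenase, kinase and mutase steps from Tpi1 to Pgam1 lie between 0.39 and 0.68, and Slc2a1, Pfkl and Eno1 lie below 0.

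Levels of different genes were compared per kilobase of annotated exon. In MIZ-1WT, Aldoa led at 101 CPM per kilobase, followed by Pkm (60.4), Ldha (52.8), Gpi1 (36.4), Pgk1 (31.0), Eno1 (16.2), Slc2a1 (12.5), Gapdh (11.8), Pfkl (11.7) and Hk2 (2.46). Slc2a1, Gapdh and Pfkl did not differ beyond the spread of their libraries. In MIZ-1DPOZ, neither Gpi1 and Pgk1 (43.8 and 43.6 CPM per kilobase) nor Gapdh and Eno1 (15.5 and 14.7) nor Slc2a1 and Pfkl (both 10.8) were apart beyond that spread. Hk2 was the lowest of the 10 in both genotypes.

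The low place of Gapdh goes together with its many copies in the genome. Reads without a unique alignment, which are not counted on any gene, made up from 42.8% to 44.1% of the table. Of all stretches of 50 bases, the length of 1 read, in the principal transcript of Gapdh, 82.5% also occurred in other annotated genes, 213 of them pseudogenes. The same share was 72.2% for Eno1, 68.0% for Pgk1, 30.5% for Pkm, 19.6% for Gpi1, 17.1% for Ldha and 13.9% for Aldoa. It was 0.0543% for Pfkl and 0 for Slc2a1 and Hk2. Outside the members, it was 41.5% for Pgam1 and 7.51% for Tpi1. A pair of such stretches of Gapdh, on the minus strand of GRCm38, are shown with no capitals set. They are the most and the least shared among stretches that lie within a single coding exon. Stretches that no other gene holds lie outside this choice.
Held by 84 other genes (exon 4, chr6:125162898-125162947): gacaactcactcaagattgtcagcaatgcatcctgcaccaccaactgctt
Held by 10 other genes (exon 3, chr6:125163387-125163436): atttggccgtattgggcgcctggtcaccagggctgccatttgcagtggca
A read that matches the first stretch alone can be placed at any of the copies.

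Divided by all stretches of the principal transcript, the level of Gapdh in MIZ-1WT was 35.5 CPM per kilobase, the seventh of the 10. Divided by the stretches that no other gene holds, it was 203, the second after Aldoa at 234. Eno1 moved likewise from 44.1 to 159 and Pgk1 from 39.1 to 122, whereas Slc2a1 (13.7) and Hk2 (2.68) had the same value under both divisions. This reckoning treats each read of a pair alone, so that pairs placed by 1 unique read make the second level too high. The fold changes are not altered by it. For Gapdh, Eno1 and Pgk1, however, they rest on a part of the transcript and are uncertain to that extent. The same holds, to a lesser degree, for Pgam1, Pkm, Gpi1, Ldha and Aldoa. The counted pseudogenes of Gapdh, 192 in the table, had 472 and 440 reads in MIZ-1WT and 523 and 569 in MIZ-1DPOZ, against 2234 and 1939, then 2939 and 2896, on Gapdh itself.

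**Figure D3:**
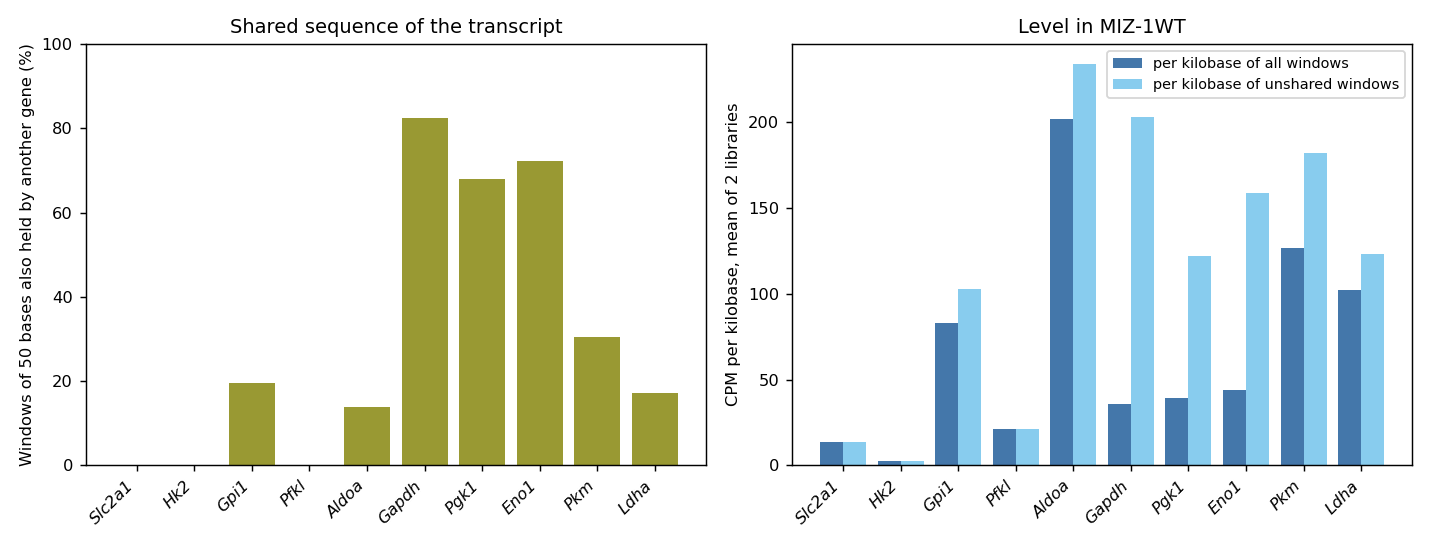
Left, the share of 50-base stretches of each principal transcript that other annotated genes also hold (percent). Right, the mean level in 2 MIZ-1WT libraries (CPM per kilobase) divided by all stretches or by unshared ones; Gapdh goes from 35.5 to 203, while Slc2a1 and Hk2 stay level.

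Isoenzymes were then set against each other within a step, as shares of the summed reads per kilobase of exon in each library. The share of Hk1 among hexokinases went from 59.6% and 54.3% in MIZ-1WT to 31.5% and 40.5% in MIZ-1DPOZ, while that of Hk3 went from 10.7% and 19.7% to 40.1% and 29.4%. Hk2 held 29.6% and 26.0% against 28.3% and 30.0%, overlapping between genotypes despite its own rise. Pfkl went from 57.9% and 60.9% of phosphofructokinase to 50.2% and 49.9%, and Pfkp went from 38.2% and 36.5% to 44.3% and 44.1%. Slc2a1 made up 51.0% and 56.2% of the pair with Slc2a3 in MIZ-1WT and 48.8% and 49.1% in MIZ-1DPOZ. With 2 libraries against 2, an exact permutation test cannot pass 0.05, so the shares are given as descriptions.

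The order of isoenzymes depended on the length used. Per unshared stretch of the principal transcript, Slc2a1 was the minor form of the pair (40.6% in MIZ-1WT and 36.1% in MIZ-1DPOZ). Pfkl was then below Pfkp (46.1% and 37.5%). Hk2 went from 17.3% to 20.8% of hexokinase, and by this measure the genotypes did not overlap (18.1% and 16.4% against 20.9% and 20.8%). Hk1 then made up 72.6% of hexokinase in MIZ-1WT and 52.7% in MIZ-1DPOZ, and Hk3 10.1% and 26.5%. In MIZ-1DPOZ replicate 1, where Hk3 exceeded Hk1 per exon length, it was below it by this measure (31.4% against 47.7%). Aldoa (97.8% and 98.7% per exon length) and Ldha (99.5% and 99.4%) were nearly the sole forms of their steps. Eno1 made up 61.8% and 61.2% of enolase per exon length and 93.2% and 93.0% per unshared stretch.

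**Figure D4:**
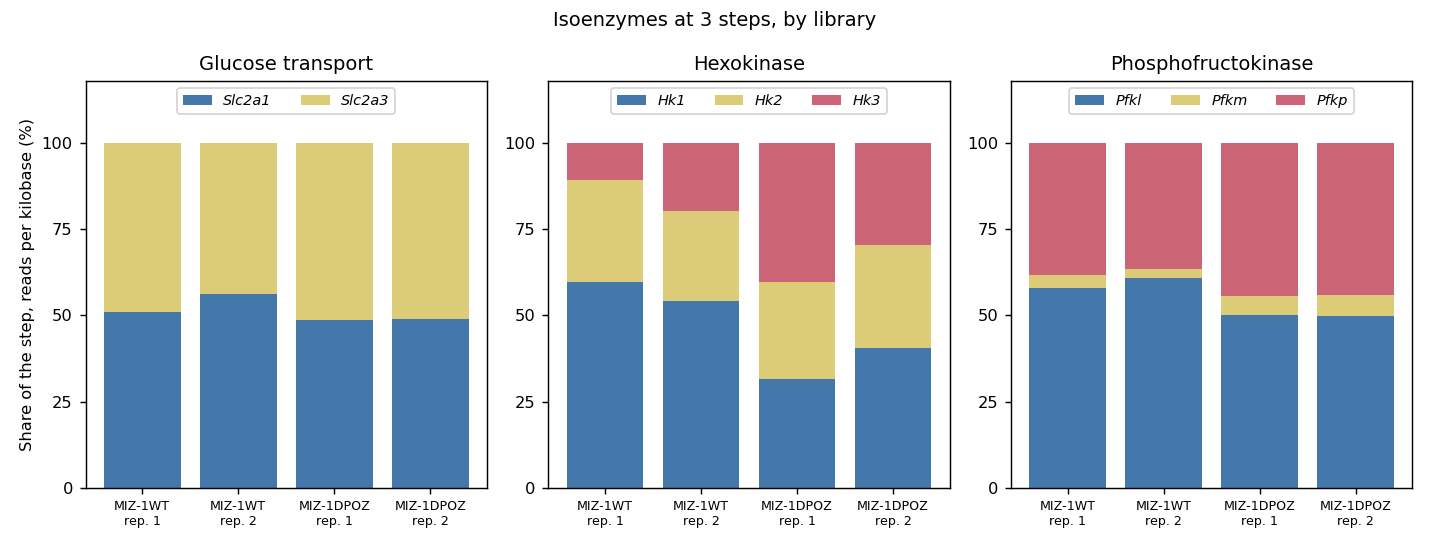
Shares (percent of summed reads per kilobase of exon) of isoenzymes in glucose transport, hexokinase and phosphofructokinase in each of the 4 libraries. Hk3 takes 10.7% and 19.7% in MIZ-1WT and 40.1% and 29.4% in MIZ-1DPOZ; the share of Pfkl is lower in both MIZ-1DPOZ libraries.

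Beyond the 10 genes, the surrounding pathway was read through 7 lists of 92 genes, of which 72 were tested. Among these, 22 were higher (30.6%, against 21.1% of all genes tested) and 11 lower (15.3%, against 18.9%). All 3 tested genes of the steps without a member rose, with a median log2 fold change of 0.52. Among isoenzymes and other transporters, 5 of 14 tested genes rose and 1 fell, with a median of 0.37. For the export of lactate, 2 of 5 genes rose: Slc16a1, the monocarboxylate transporter MCT1, from 28.6 and 27.0 CPM to 41.7 and 36.4 CPM (log2 fold change 0.49, adjusted p = 0.00863), and Emb, a chaperone of such transporters, with a log2 fold change of 0.77 (adjusted p = 0.0037). Bsg, another such chaperone, did not pass the test (log2 fold change 0.05, adjusted p = 0.439).

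Regulators of glucose use did not move one way. Of 15 tested, 2 rose and 4 fell, with a median log2 fold change of -0.02. Among all genes tested, 21.1% were higher and 18.9% lower. Myc rose from 28.2 and 23.4 CPM to 35.2 and 39.5 CPM (log2 fold change 0.53, adjusted p = 0.0139). Hif1a did not pass the test (log2 fold change 0.08, adjusted p = 0.223). Pfkfb4, an enzyme that sets the allosteric activator of phosphofructokinase, fell by 0.42 (adjusted p = 0.00444), and Mlxip, a glucose-sensing transcription factor, fell by 0.51 on the log2 scale (adjusted p = 0.00572). Txnip, which restrains glucose uptake and is a target of Mlxip, went from 831 and 828 CPM to 639 and 718 CPM (log2 fold change -0.29, adjusted p = 0.021), whereas its relative Arrdc4 rose by 0.78 (adjusted p = 0.0383).

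For the entry of pyruvate into mitochondria, 3 of 12 tested genes rose and 2 fell. These counts lay near the shares over all genes tested, 21.1% higher and 18.9% lower. The same shares apply to the pentose phosphate pathway below. Pdk1, a kinase that inhibits pyruvate dehydrogenase, rose from 95.7 and 101 CPM to 129 and 131 CPM (log2 fold change 0.40, adjusted p = 0.0029). Pdk3, an X-linked kinase of the same family, rose by 0.37 (adjusted p = 0.0158) and the pyruvate carrier subunit Mpc2 by 0.21 (adjusted p = 0.0358). The opposing phosphatase Pdp1 fell by 0.47 (adjusted p = 0.00817) and the dehydrogenase subunit Pdhb by 0.23 (adjusted p = 0.0152). In the pentose phosphate pathway, which branches off after hexokinase, 3 of 8 genes rose and 1 fell. H6pd (log2 fold change 0.44), the X-linked G6pdx (0.42) and Tkt, transketolase (0.34), were higher, and Rpe, an epimerase, was lower (-0.36), with adjusted p from 0.00713 to 0.00841.

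Some marker lists had far larger differences than the glycolysis genes in the same libraries. The counts below stand beside 21.1% of all genes tested higher and 18.9% lower. All 16 macrophage markers rose, with a median log2 fold change of 1.98, none of them at 0 in any group. All 10 proliferation genes rose, with a median of 1.86, among them Top2a and Mki67. Of the lists for B cell subsets, 5 of 6 germinal center genes, 6 of 7 plasma cell genes and 6 of 7 marginal zone genes rose, while the remaining germinal center gene, Bcl6, fell by 1.36 on the log2 scale (adjusted p = 0.000682). In contrast, 3 of 5 follicular genes and 8 of 10 genes shared by B cells fell, the latter with a median of -0.25. T cell markers were low, and 2 of 12 rose (summed levels of 92.2 and 72.9 CPM in MIZ-1WT, 94.8 and 102 CPM in MIZ-1DPOZ). The part of proliferating, germinal center, plasma or myeloid cells in the changes of glycolysis genes was not tested.

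**Figure D5:**
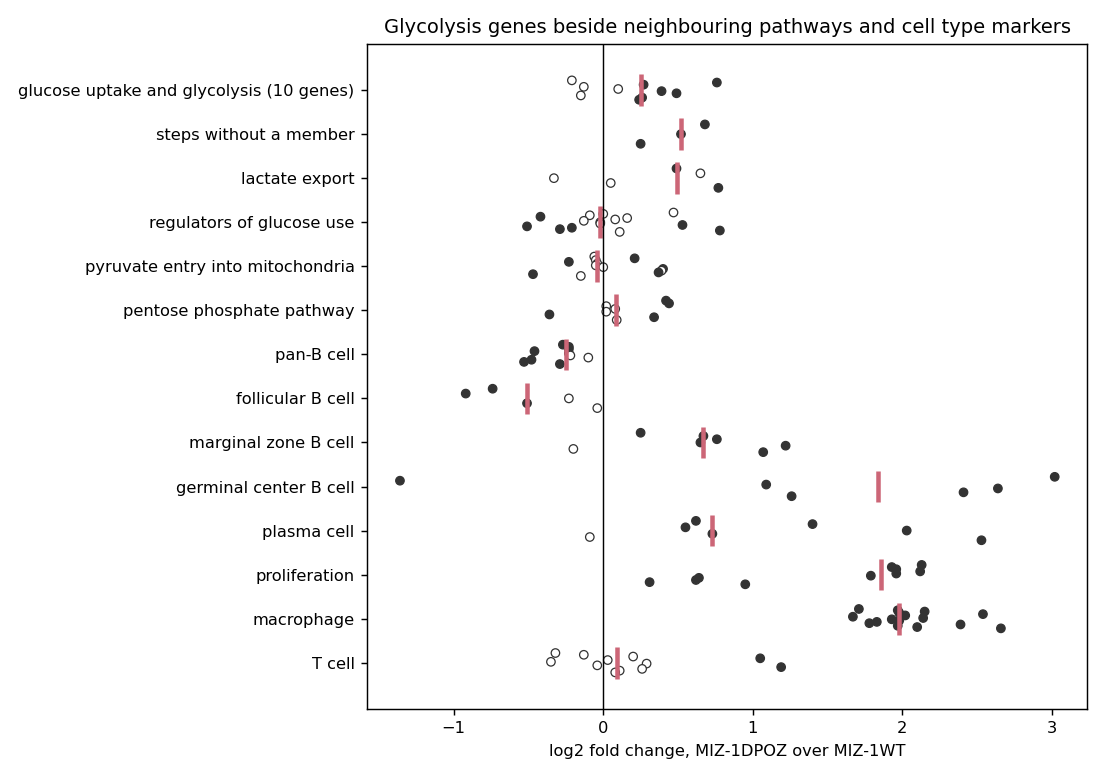
Log2 fold changes of MIZ-1DPOZ over MIZ-1WT (horizontal axis) for single genes in lists of pathways and cell type markers. Each point is a tested gene, filled where the adjusted p was under 0.05, and bars are medians: 0.25 for the 10 glycolysis genes, 1.86 for proliferation and 1.98 for macrophage markers.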

How the data were processed

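Gene expression was measured by RNA-seq in B220+ splenocytes of 2 MIZ-1WT and 2 MIZ-1DPOZ replicates, grouped as labelled. The deposited values are raw read counts per Ensembl gene, neither normalized nor pooled, which the authors made from rRNA-depleted stranded libraries by trimming with Trimmomatic, mapping to mm10 with TopHat2 (version 2.1.0 in the submitters' processing notes) and counting with HTSeq. The strand setting and the Ensembl release are not given in the sources used here. Summary lines of HTSeq were left out: they included reads on no gene (21.1% to 27.2%) and ambiguous reads (0.281% to 0.302%).

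The 14554 of 41214 genes that reached 10 counts in 2 or more libraries were tested with edgeR 4.0.16 in R 4.3.3, by its quasi-likelihood method with TMM factors (0.977 to 1.03), and p-values were adjusted over all of them after Benjamini and Hochberg, at a threshold of 0.05. The common dispersion was 0.00848. Symbols, positions and exon lengths came from GENCODE M21, and start sites from RefSeq. Scripts were tested on simulated data.

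The 10 members and all lists were chosen with earlier results of these data known. Named genes were the members, their tested isoenzymes, the 3 tested genes of the steps without a member, and of the other 5 pathway lists up to 3 called genes in each direction; of marker lists, those among the 2 with most counts. Bcl6, Bsg, Hif1a, Pck1 and the pseudogenes Gm1840 and Gm11346 were added after their values were seen. Alternatives were the size factors and the Wald test of DESeq2 1.42.0, no filter, a mean of at least 100 counts, removal of 252 immunoglobulin segments, a replicate block, and leaving out each library. Levels and shares per stretch of the principal transcript were added after the data were seen.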

Additional observations from a re-analysis of the deposited data

How the results depend on the processing

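Under 6 alternatives that kept all libraries, 60 of 60 member log2 fold changes kept their direction and their side of the threshold. No pairing of libraries by replicate number was seen (r = -0.0688 between the deviations of equal numbers, over 14554 genes). With 2 libraries per genotype, this value cannot show whether libraries were prepared in pairs. With the replicate number as a block 6 members were higher and 0 lower, 21 and 10 of the pathway genes, and 2633 and 2099 of all genes. In that edgeR fit, adjusted p of the higher members ranged from 0.00475 to 0.0371, and no call of a member changed. Leaving out 1 library gave from 2 to 6 higher and from 0 to 1 lower members, from 12 to 22 and from 5 to 11 pathway genes, and from 1367 to 3017 and from 837 to 2722 of all genes. In these fits the members' median ranged from 0.21 to 0.26, Gpi1 from 0.20 to 0.34, Gapdh from 0.32 to 0.47, Eno1 from -0.24 to -0.04, Pkm from 0.21 to 0.31 and Ldha from 0.21 to 0.27 on the log2 scale; they have fewer samples. No direction of a member was reversed. Leaving out the filter gave 5952 calls among 21025 genes.

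Isoenzyme shares moved with the length used, by construction. From counts without division by exon length, Slc2a1 held 35.9% in MIZ-1WT and 31.7% in MIZ-1DPOZ, Hk2 23.4% and 28.6%, Hk3 7.96% and 21.1%, and Pfkl 43.7% and 35.3%. Per unshared stretch of the principal transcript, chosen after seeing the data, Slc2a1 held 40.6% and 36.1%, Hk2 17.3% and 20.8%, Hk3 10.1% and 26.5%, Pfkl 46.1% and 37.5%, and Eno1 93.2% and 93.0%.

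At 2 libraries per genotype p-values rest on the spread between these samples alone. Depth was not limiting for the members, the least counted of which had 593 reads in a library, but Slc2a13, Pgk2, Eno2 and Ldhb were all measured below 1 CPM.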

Other observations

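Gluconeogenesis and glycogen metabolism were read through a list of their own. Of 15 tested genes, 4 rose and 3 fell in MIZ-1DPOZ, with a median log2 fold change of 0.15. Over all genes tested, 21.1% were higher and 18.9% lower. Both phosphoglucomutases, which link glycogen to glycolysis, were higher: Pgm1 rose from 24.8 and 24.9 CPM to 37.9 and 37.5 CPM (log2 fold change 0.60, adjusted p = 0.00187, edgeR), and Pgm2 from 12.2 and 12.3 CPM to 18.2 and 18.5 CPM (0.58, adjusted p = 0.00381). The glycogen phosphorylases went apart. Pygl, the liver form, rose from 5.87 and 7.54 CPM to 31.1 and 20 CPM (log2 fold change 1.93, adjusted p = 0.00321), and Pygm, the muscle form, went from 2.45 and 2.5 CPM to 1.01 and 1.00 CPM (-1.30, adjusted p = 0.00539). Gbe1, the glycogen branching enzyme, had 31.5 and 32.2 CPM against 19.9 and 18.1 CPM (-0.75, adjusted p = 0.00198). Pck2, the mitochondrial carboxykinase of gluconeogenesis, fell by 0.26 on the log2 scale (adjusted p = 0.0189, edgeR). Pck1, the other carboxykinase gene of the list, rose by 1.86 (adjusted p = 0.0103, edgeR) at levels below 1 CPM.

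Markers of the other cell types listed were mostly low. Their counts stand beside 21.1% of all genes tested higher and 18.9% lower. Of 7 conventional dendritic cell genes, 3 rose and 1 fell, with summed levels of 40.0 and 40.5 CPM in MIZ-1WT and 69.7 and 51.4 CPM in MIZ-1DPOZ. Of 6 neutrophil genes tested, 1 rose, with summed levels of 15 and 4.78 CPM in MIZ-1WT and 9.08 and 17.4 CPM in MIZ-1DPOZ. Among 8 erythroid genes, 1 rose (48.5 and 60.8 CPM in MIZ-1WT, 41.7 and 115 CPM in MIZ-1DPOZ). Among 7 NK cell genes, 2 rose and 1 fell (59.1 and 57.9 CPM in MIZ-1WT, 62.4 and 66.6 CPM in MIZ-1DPOZ). Of 6 plasmacytoid dendritic cell genes, some of which B cells also express, 1 fell. Their summed levels were 1070 and 990 CPM in MIZ-1WT and 848 and 880 CPM in MIZ-1DPOZ.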
